A study of Drosophila melanogaster with 4 samples.

Results

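The X interior is the X chromosome arm of Drosophila melanogaster without its outer 2 Mb at each end, 18.4 Mb from base 2000001 to base 20422827 on FlyBase release 5. Its members are the regions enriched for histone H3 monomethylated at lysine 27 (H3K27me1) in the whole-series list whose midpoint falls between those limits: 1981 of 12359 regions, and of 2346 on X. The series profiled H3K27me1 by chromatin immunoprecipitation and sequencing (ChIP-seq) in wild-type larvae (strain Oregon-R, instar 3), with a rabbit polyclonal antibody from Millipore against a peptide of human histone H3. There are 2 ChIP replicates and 2 inputs. A region list came with each replicate, holding 1407 of 8209 regions on the X interior in replicate 1 and 1132 of 6901 in replicate 2. All samples share the same wild-type genotype, strain and stage, and the labels give neither the sex of the larvae nor the number pooled. Nor do they state whether larvae were collected separately for each replicate, and the replicate spread may thus be technical. No input file was analysed here and read depth is unknown, so the ChIP values stand without a background level and without a counting error.

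H3K27me1 is the first of the methylation states that Polycomb repressive complex 2, with its enzyme E(z), can place on this lysine, and the trimethylated state is the one bound by Polycomb. The demethylase Utx removes methyl groups from the trimethylated state. The X chromosome of flies is present in a single copy in males, where the dosage compensation complex raises transcription of its genes. Neither the enzymes nor that complex was measured here. The rest of the text sets the X interior beside the interiors of the autosomal arms 2L, 3L and 3R, defined by the same 2 Mb limits.

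At the telomere side, the whole-series region just outside the limit ran from 1988417 to 2004422 with a score of 0.70, and the one just inside from 2006906 to 2012884 with a score of 0.46. At the centromere side, the last region inside ran from 20386988 to 20391907 with a score of 0.59, and the next one outside from 20471855 to 20473999 with a score of 0.55. The score is the authors' own enrichment value per region, and its scale is not stated, so differences between scores are given and no folds.

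H3K27me1 regions were dense on the X interior. Replicates 1 and 2 and the whole-series list held 76.4, 61.4 and 107.5 regions per Mb there, against 60.3, 49.98 and 82.6 per Mb on the pooled autosomal interiors. In the same order they covered 24.5%, 19.3% and 37.5% of the X interior, against 20.1%, 16.3% and 29.4% of the autosomal interiors. In each of the 3 lists the X interior had more regions per Mb and a higher covered share than each of 2L, 3L and 3R.

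Within a replicate, coverage of the X interior was 1.20 ± 0.02 times that of the autosomal interiors, and its region density 1.25 ± 0.03 times (SD, n = 2). The replicates also differed from one another, and coverage averaged 21.9% ± 3.6 on the X interior and 18.2% ± 2.7 on the autosomal interiors (SD, n = 2). The excess was smallest against 3L, the most covered autosomal interior, at 1.11 times its coverage, and largest against 2L, at 1.29 times. With 2 replicates the smallest two-sided p of an exact sign-flip permutation is 0.5, so no test over samples is given for the differences between interiors, which stand as values per list. Counting only regions whose score reached the median of their list, regions were 2.07 times as dense on the X interior as on the autosomal interiors, but such a selection keeps more regions where scores are high.

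The larger coverage of the X interior went with more regions, not wider ones. The median width was 2185 bp on the X interior in replicate 1, against 2258.5 bp on the autosomal interiors. In replicate 2 it was 2124 bp on the X interior, against 2246.5 bp. In the whole-series list the order turned, by 5 bp, with 2120 bp on the X interior and 2115 bp on the autosomal interiors.

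Among the members, regions under 2 kb were the most numerous class, and the fewer regions of 10 kb or more held more bases. In the whole-series list, 938 members were under 2 kb, 685 were 2 to 5 kb, 253 were 5 to 10 kb and 105 were 10 kb or more. The regions under 2 kb held 19.4% of the bases inside members, and those of 10 kb or more held 24.1%. On the autosomal interiors these shares were 18.8% and 26.2%. In the replicates, regions of 10 kb or more were 42 of the X interior regions of replicate 1 and 25 of those of replicate 2, and held 12.9% and 12.8% of the bases. There the regions under 2 kb held more, 20.9% of the bases in replicate 1 and 22.1% in replicate 2.

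Scores on the X interior were higher than on the autosomal interiors. The median was 0.641 on the X interior in replicate 1 and 0.630 in replicate 2, against 0.547 and 0.540 on the autosomal interiors. The difference was 0.091 ± 0.003 (SD, n = 2), and 0.072 in the whole-series list, where the medians were 0.454 and 0.381. The 3 autosomal interiors lay close together, between 0.545 and 0.549 in replicate 1 and between 0.536 and 0.541 in replicate 2. The autosomal median of the same list was exceeded by 77.0% of X interior regions in replicate 1 (95% Wilson interval 74.8 to 79.2), by 78.8% in replicate 2 (76.3 to 81.1) and by 80.4% of members (78.6 to 82.1). All intervals on shares cover counting error alone and take regions as independent, which neighbours are not.

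Scores on the X interior were higher from the 5th to the 95th percentile, but the highest single scores were not all there. Between the 5th and the 95th percentile, the X interior exceeded the autosomal interiors by 0.079 to 0.10 at the percentiles examined in replicate 1. The excess was 0.069 to 0.096 in replicate 2, and 0.060 to 0.072 among the members. At the 10th percentile, replicate 1 had 0.485 on the X interior and 0.396 on the autosomal interiors. At the 90th percentile it had 0.866 on the X interior and 0.775 on the autosomal interiors. The highest score was 1.33 on the X interior and 1.27 on the autosomal interiors in replicate 1, but 1.14 against 1.45 in replicate 2 and 1.31 against 3.31 in the whole-series list.

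Wider regions scored higher on the X interior, with a Spearman coefficient across regions of 0.71 and 0.62 in the replicates and of 0.55 among the members. The coefficients on the autosomal interiors were 0.75, 0.69 and 0.60. Regions are not independent samples, so these are descriptions. The score excess was present in each width class. Under 2 kb, the median of replicate 1 was 0.549 on the X interior and 0.452 on the autosomal interiors, and that of replicate 2 was 0.556 and 0.466. At 10 kb or more, replicate 1 had 0.916 on the X interior and 0.802 on the autosomal interiors, and replicate 2 had 0.855 and 0.770. X interior regions of 2 to 5 kb had medians of 0.691 in replicate 1 and 0.658 in replicate 2, close to those of autosomal regions of 5 to 10 kb, 0.714 and 0.653.

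**Figure D1:**
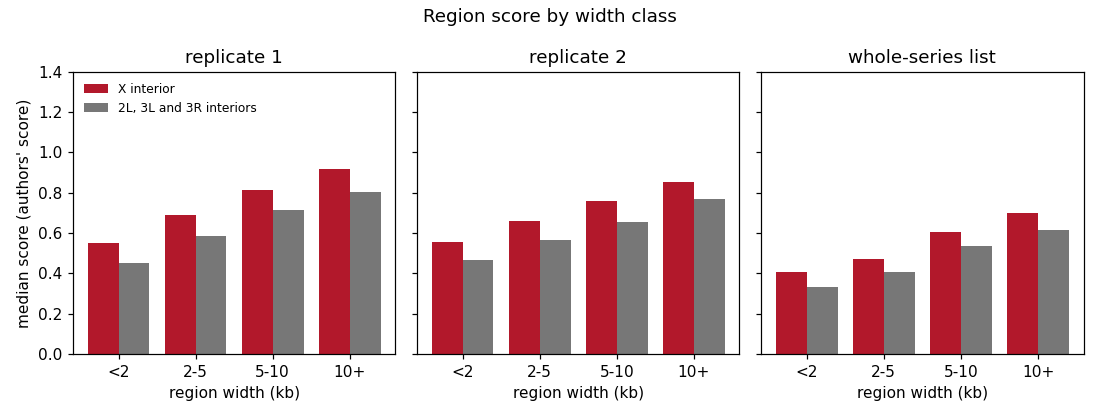
Median authors' score of regions on the X interior (red) and on the pooled interiors of 2L, 3L and 3R (grey), by region width in kb, in each of the 3 lists. The red bar is the taller in every width class, by 0.066 to 0.11.

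The score excess ran along most of the X interior. In 18 full bins of 1 Mb, the median score was 0.61 to 0.71 for replicate 1, 0.59 to 0.70 for replicate 2 and 0.43 to 0.51 for the members. In 62 bins of the autosomal interiors it was 0.48 to 0.59, 0.50 to 0.58 and 0.34 to 0.42. All 18 X interior bins thus lay above all 62 autosomal bins in each list. This separation depended on the bin size: with bins of 500 kb, 1 of 36 X interior bins lay above every autosomal bin in replicate 1, as did 11 of 36 in replicate 2 and 5 of 36 for the members. All 36 still lay above the median autosomal bin in each list. With bins of 250 kb holding at least 5 regions, 0 of 72 X interior bins lay above every autosomal bin in replicate 1, 6 of 67 in replicate 2 and 0 of 72 for the members. Of these, 69, 66 and 72 lay above the median autosomal bin. The comparison of bin scores was chosen after the data were examined.

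The bin from 12 to 13 Mb had the highest median score of the X interior, 0.71 in replicate 1 and 0.70 in replicate 2, and a coverage of 21.1% ± 2.4 (SD, n = 2), in the middle of the range. Bin scores followed each other less closely between replicates than bin coverage did, with a Spearman coefficient over the 18 bins of 0.41 for scores and 0.96 for coverage. Both are given as descriptions across neighbouring bins of the same libraries.

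**Figure D2:**
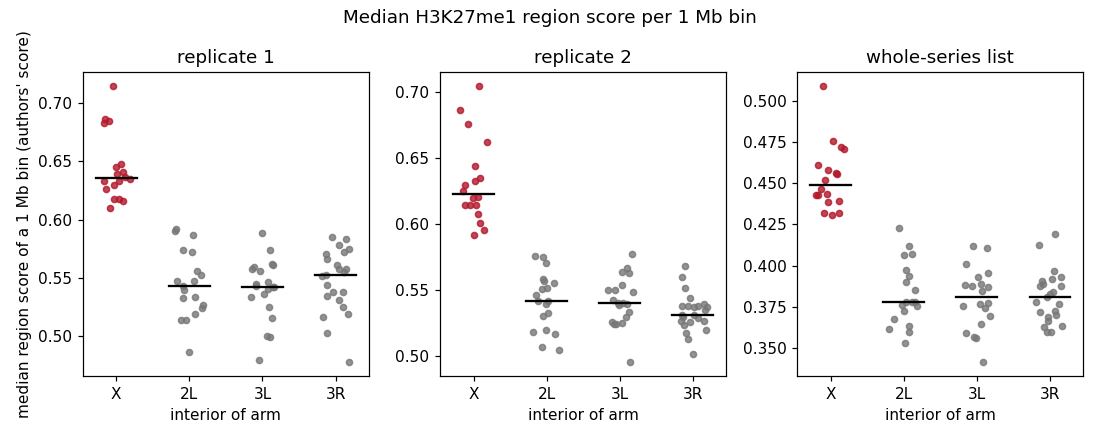
Median authors' score of regions in each full 1 Mb bin of the X interior (red) and of the interiors of 2L, 3L and 3R (grey), in each list, with a black line at the median bin. The lowest of 18 X interior bins, at 0.61, 0.59 and 0.43 in the 3 lists, lies above the highest of 62 autosomal bins, at 0.59, 0.58 and 0.42.

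Coverage varied along the X interior, with 11.4% to 33.6% of a 1 Mb bin covered in the mean of the replicates. The most covered bins were 13 to 14 Mb with 33.6% ± 3.8, 6 to 7 Mb with 30.7% ± 4.8 and 11 to 12 Mb with 28.4% ± 4.8 (SD, n = 2). The least covered were 7 to 8 Mb with 11.4% ± 1.3, 4 to 5 Mb with 12.9% ± 2.1 and 5 to 6 Mb with 14.8% ± 4.4 (SD, n = 2). The second richest bin therefore bordered both the poorest and the third poorest. Counts ran the same way: in the whole-series list the bin from 13 to 14 Mb held 137 regions and that from 7 to 8 Mb held 64.

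The poorest X interior bin, 12.3% covered in replicate 1 and 10.5% in replicate 2, was above the poorest bins of 2L (5.46% and 3.93%), 3L (9.65% and 6.23%) and 3R (7.08% and 5.20%). The highest bin was 2.94 times as covered as the lowest on the X interior in replicate 1 and 2.95 times in replicate 2. On 2L this ratio was 5.76 and 6.74, on 3L 3.73 and 4.76, and on 3R 5.49 and 6.41. In the whole-series list it was 2.67 on the X interior, against 5.66, 2.90 and 4.03 on 2L, 3L and 3R. Replicate 1 covered more than replicate 2 in all 18 X interior bins, by 1.04 to 1.53 times. This was not particular to X: it did so in 18 of 19 bins on 2L, 18 of 20 on 3L and all 23 on 3R.

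No steady gradient from the telomere side to the centromere side was seen. The first 6 bins, from 2 to 8 Mb, averaged 22.4% covered in replicate 1 and 18.0% in replicate 2. The middle 6 bins, from 8 to 14 Mb, averaged 27.1% and 22.7%. The last 6 bins, from 14 to 20 Mb, averaged 23.8% and 17.4%. Median scores of the 3 parts were 0.64, 0.65 and 0.63 in replicate 1 and 0.64, 0.64 and 0.61 in replicate 2.

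**Figure D3:**
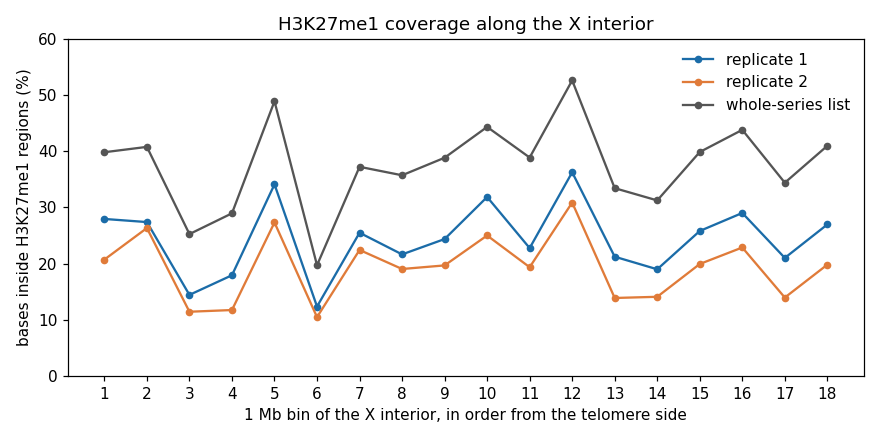
Share of bases inside H3K27me1 regions in the 18 full 1 Mb bins of the X interior, in order from the telomere side, in both replicates and the whole-series list. All 3 lists are lowest in bin 6, at 12.3%, 10.5% and 19.7%, and highest in bin 12, at 36.2%, 30.9% and 52.6%.

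Neighbouring regions on the X interior were usually a few kilobases apart. Replicate 1 had a median gap of 3283 bp and replicate 2 one of 4125 bp, against 3399 and 3670 bp on the autosomal interiors. The median gap of the X interior was thus the shorter in replicate 1 and the longer in replicate 2, and the difference of 169.5 ± 404 bp (SD, n = 2) was within the spread between replicates. In the whole-series list the median was 2113.5 bp on the X interior and 2384 bp on the autosomal interiors, and 33.0% and 31.5% of gaps were 1 kb or less.

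The interiors differed more in the share that long gaps took up. Stretches of 20 kb or more between regions took up 45.5% of the X interior in replicate 1 and 56.2% in replicate 2, against 58.2% and 66.2% of the autosomal interiors. The difference was -11.3 ± 1.9 percentage points (SD, n = 2). In the whole-series list they took up 25.5% of the X interior, against 48.8% of 2L, 35.8% of 3L and 44.5% of 3R. Stretches of 20 kb or more were fewer per Mb on the X interior in replicate 1, with 8.68 against 9.61 on the autosomal interiors. In replicate 2 they were more frequent there, with 9.99 against 9.39. The whole-series list had 5.92 per Mb on the X interior and 8.89 on the autosomal interiors. Stretches of 100 kb or more numbered 6 on the X interior in that list, or 0.33 per Mb. Those on 2L, 3L and 3R numbered 16, 13 and 14, or 0.84, 0.63 and 0.59 per Mb. The 20 kb threshold and this comparison were chosen after the data were examined.

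**Figure D4:**
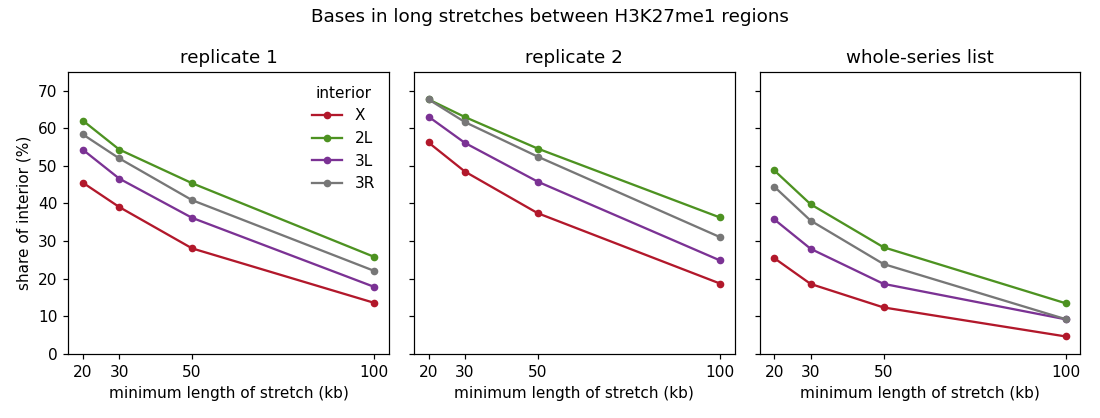
Share of the interior of X, 2L, 3L and 3R that lies in stretches between neighbouring regions at least as long as the value on the horizontal axis, in each list. The X interior is the lowest line in every panel at 20 kb and 100 kb, with 45.5%, 56.2% and 25.5% at 20 kb.

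The longest stretch of the X interior without a whole-series region was 190.3 kb, from 7329762 to 7520090, and held no base of either replicate. It lay in the least covered bin. The next were 160.5 kb from 4264815 to 4425296, with 28 bases covered in replicate 1 and 0 in replicate 2, and 160.3 kb from 15998860 to 16159156, with no covered base in either. They were followed by 123.8 kb from 8608564 to 8732334 and 111.8 kb from 17195480 to 17307284, where at most 148 bases were covered in a replicate. Whether reads can be placed throughout these stretches is not known here.

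Where regions were close, they formed runs. Joining regions no more than 5 kb apart gave 587 runs on the X interior in the whole-series list, of which 213, or 36.3%, were single regions. Single regions were 42.5% of the runs on 2L, 41.7% on 3L and 45.4% on 3R. In the replicates the shares of single regions were 49.1% and 51.9% on the X interior, within the range of the other 3 interiors in replicate 1 (48.7% to 53.7%) and in replicate 2 (50.7% to 55.6%). The longest runs of the 3 lists overlapped one another, with 115.0 kb in replicate 1, from 3238197 to 3353186, 114.9 kb in replicate 2, from 3238010 to 3352956, and 149.7 kb with 13 regions in the whole-series list, from 3227275 to 3376957.

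The longest single H3K27me1 regions of the X interior were covered in both replicates. The longest was 42.4 kb, from 11387538 to 11429932, and was 90.1% covered in replicate 1 by 3 regions and 93.8% in replicate 2 by 1 region. The next, 41.5 kb from 13108969 to 13150505, was 97.7% and 99.9% covered, with highest replicate scores of 1.04 and 0.96. A region of 37.6 kb from 3238000 to 3275607, at the head of the longest run, was 97.2% and 98.6% covered. A region of 31.9 kb from 8413063 to 8444930 was 95.2% and 98.3% covered. The fifth differed from these: 28.3 kb from 12994039 to 13022356, with a whole-series score of 0.58, was made up of 7 separate regions in each replicate, which covered 82.8% and 69.8% of it.

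The 5 highest whole-series scores on the X interior fell mostly on narrow regions that neither replicate list held. The replicate lists hold no region under 1301 bp, and some of these regions were narrower than that. Of the 5 highest, 4 overlapped no replicate region: 1129 bp from 18648269 to 18649397 with a score of 1.31, 1001 bp from 7713404 to 7714404 with 1.27, 1344 bp from 17789487 to 17790830 with 1.23, and 1357 bp from 7709825 to 7711181 with 1.10. The second and the last of these are neighbours in the least covered bin. The other, 8.82 kb from 3056663 to 3065482 with a score of 1.15, overlapped the highest-scoring X interior region of replicate 1, at 1.33, and a region of replicate 2 scoring 1.09. Of 11 members with a score of 1 or more, 5 overlapped neither replicate and were 1001 to 1357 bp wide, and the other 6 overlapped both and were 3573 to 10330 bp wide. High-scoring regions in neither replicate were not particular to X. Among 5241 autosomal interior regions, 11 with a score of 1 or more overlapped neither replicate, 4 overlapped both and 1 overlapped replicate 2 alone. The 5 and 6 on the X interior were among 1981 members, so those in both made up a larger share there.

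Where both replicates covered at least 90% of a member, the strongest by the lower of its replicate scores was 10.3 kb from 15707318 to 15717647, with 1.11 in replicate 1 and 1.14 in replicate 2. The replicate 2 region there was the highest-scoring one of that replicate on the X interior. It was followed by 6.60 kb from 3275863 to 3282466, with 1.08 and 1.05, which starts just after the 37.6 kb region above. A region of 19.2 kb from 6971909 to 6991074 had 1.10 and 1.03, 7.12 kb from 3614501 to 3621623 had 1.09 and 0.99, and 3.57 kb from 2200097 to 2203669 had 1.05 and 0.98. The files name no genes and no annotation of release 5 was used here, so genes at these places are not given.

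Of the 1981 members, 725 (36.6%, 95% Wilson interval 34.5 to 38.7) overlapped regions of both replicates by at least 1 bp, near the 35.1% among all regions of the whole-series list. A further 393 overlapped replicate 1 alone, 19.8% against 18.7% of all regions, and 165 replicate 2 alone, 8.33% against 8.37%. The remaining 698, or 35.2%, overlapped neither, against 37.8% of all regions. Members at least 90% covered in both replicates numbered 72, or 3.63% (2.90 to 4.55), near the 4.07% of all regions. That share was 4.96% (4.41 to 5.58) on the autosomal interiors, with 5.54% on 2L, 4.45% on 3L and 5.04% on 3R. On the autosomal interiors, 39.7% (38.4 to 41.0) overlapped both and 34.2% (32.9 to 35.4) neither. How the replicates entered the whole-series list is not stated, so these overlaps are no independent check of it.

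Width separated the members found in both replicates from those found in neither, where found means an overlap of at least 1 bp. A wider region meets that rule more readily, so a rise with width is partly built in. Of members under 2 kb, 30 of 938 overlapped both replicates (3.20%, 95% Wilson interval 2.25 to 4.53). At 2 to 5 kb it was 350 of 685 (51.1%, 47.4 to 54.8), at 5 to 10 kb 240 of 253 (94.9%, 91.4 to 97.0) and at 10 kb or more 105 of 105. On the autosomal interiors, the share was 3.21% (2.58 to 3.98) under 2 kb, 58.6% (56.3 to 60.9) at 2 to 5 kb, 95.7% (93.9 to 97.0) at 5 to 10 kb and 99.0% (97.1 to 99.7) at 10 kb or more. The shares of the X and autosomal interiors lay furthest apart at 2 to 5 kb. These intervals take regions as independent, so they are no test between the interiors. The replicate lists hold no region under 1301 bp, and 358 of the 698 members in neither were narrower than that. Members in neither replicate had a median score of 0.42 and members in both 0.56, against 0.34 and 0.49 on the autosomal interiors, so the score excess of X was also present among regions that the replicate lists did not hold.

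**Figure D5:**
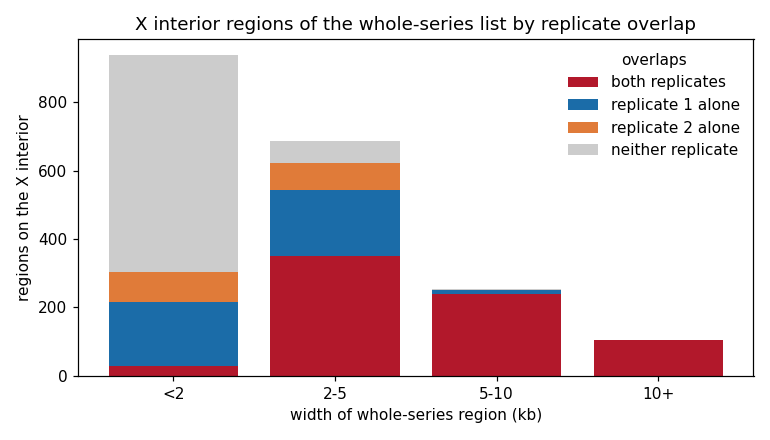
Number of whole-series regions on the X interior by width in kb, split by whether they overlap a region of both replicates, of replicate 1 alone, of replicate 2 alone or of neither. Under 2 kb, 633 of 938 overlap neither, and at 10 kb or more all 105 overlap both.

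Between the replicates themselves, 923 of the 1407 X interior regions of replicate 1 were also met by replicate 2 (65.6%, 95% Wilson interval 63.1 to 68.0), near the 66.5% over all scaffolds. In replicate 2, 931 of 1132 (82.2%, 79.9 to 84.4) overlapped a region of replicate 1, near the 81.6% over all scaffolds. On the autosomal interiors the shares were 68.7% (67.2 to 70.1) and 85.5% (84.2 to 86.7). In bases, the replicates shared 2.83 Mb of 5.23 Mb covered in either on the X interior, a Jaccard index of 54.1%, against 59.1%, 59.0% and 58.7% on 2L, 3L and 3R. A further 1.67 Mb was in replicate 1 alone, 0.728 Mb in replicate 2 alone and 1.79 Mb in the whole-series list alone. The 3 lists left 11.4 Mb, or 61.9% of the X interior, without any region, against 70.2% of the autosomal interiors.

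Where 1 region of replicate 1 met exactly 1 region of replicate 2, the edges differed by less than 1 kb in the median. Over 628 such pairs on the X interior, the median distance was 330.5 bp between starts and 342.5 bp between ends, against 281 and 305 bp over 1721 pairs on the autosomal interiors. Replicate 1 scored higher in 389 of the 628 pairs, by a median of 0.034 over all pairs. Across these pairs the scores gave Spearman's rho of 0.60 and Pearson's r of 0.65, against 0.66 and 0.72 on the autosomal interiors, as a description across regions that share their libraries.

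Scores in the whole-series list ran below those of the replicates for the same X interior regions. Over 876 pairs of 1 whole-series region and 1 replicate 1 region, the whole-series score was lower by a median difference of -0.14, and it was the higher in 40. Over 690 pairs with replicate 2, the median difference was -0.095. On the autosomal interiors these differences were -0.12 and -0.077. Whole-series regions were also wider, with medians of 2989 bp in the whole-series list and 2091.5 bp in replicate 1 over the first pairs. Of the members, 210 (10.6%) overlapped 2 or more regions of replicate 1, and 180 (9.09%) 2 or more of replicate 2. These shares were counted on the X interior alone. The share over all regions was not counted, so they are not given as a trait of X.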

How the data were processed

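H3K27me1 ChIP-seq regions of 2 replicates and 1 whole-series list were used. The submitters' processing notes name Bowtie 0.12.7 without saying what it did. How regions were called, at which threshold and whether against the input is not given in the sources used here. Coordinates follow FlyBase release 5, per the file headers. Each region carries a score that the authors deposited, whose scale the headers do not state. The whole-series list also holds 3 lines marked as depletion, none on X, which were left out. Depth is unknown.

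Members were chosen by midpoint. Covered bases were clipped to the interior limits, and gaps run between neighbouring members. Shares have 95% Wilson intervals. Interval functions were tested on simulated data. The named regions were the 5 longest, the 5 highest-scoring and the 5 strongest in both replicates (at least 90% covered in each), the highest-scoring region of each replicate, the 5 longest free stretches, the 3 most and least covered bins, and the regions beside each limit. Members and lists were chosen with earlier results of these data known. Python 3.11.15, numpy 2.4.6, pandas 2.3.3, scipy 1.17.1 and matplotlib 3.10.9 were used.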

Additional observations from a re-analysis of the deposited data

How the results depend on the processing

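Of 87 recomputed values for 12 results, 6 changed sign: the median gap difference in 5 and the median width difference in 1. No alternative turned the excess of the X interior in coverage, density or median score. In the whole-series list, the coverage ratio was 1.28, the density ratio 1.30, the score difference 0.072, the width difference 5 bp, the gap difference -270.5 bp and the difference in long stretches -17.5 percentage points. Counting only regions whose score reached the median of their list, these were 1.57, 2.07, 0.033, -1108 bp, -4796.5 bp and -17.7 points; the cut keeps more regions on X by its own construction. With regions within 1 kb joined, the width difference was -178.5 bp and the gap difference -373 bp. Against 2L alone, coverage was 1.29, density 1.37, the gap difference -114 bp and long stretches -14.0 points. Against 3L alone, coverage was 1.11, density 1.14 and long stretches -7.82 points. The score difference was 0.097 at 2 to 5 kb, 0.10 at 5 kb or more, 0.088 for mean scores and 0.087 for scores weighted by width. The share of members found in both replicates was 41.7% with joined regions, 27.9% when 50% of the region had to be covered and 45.6% without members under 1301 bp. Bins spanned 22.1 points from lowest to highest, 30.4 points at 500 kb, 49.0 points at 250 kb and 32.9 points in the whole-series list. The cause of these changes was not tested.

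With each replicate alone, coverage was 1.18 to 1.21, density 1.23 to 1.27, the score difference 0.090 to 0.093, the width difference -122.5 to -73.5 bp, the gap difference -116 to 455 bp, long stretches -12.6 to -9.98 points and the bin span 20.4 to 23.9 points. No paired analysis was possible because no input file was analysed here, so the shared replicate numbers join no 2 groups. Unknown depth limits every count of regions, since a deeper library can give more of them.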
